A study of Mus musculus with 6 samples.

Results

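Collagen chain genes were examined in gastrocnemius muscle, a calf muscle, of mice with a muscle-specific TAK1 knockout and of littermates with a floxed TAK1 gene. The genes were those with a symbol made of Col, a type number, the letter a and a chain number, on a probe set that the platform annotation gives to 1 gene. They numbered 44 among 22180 genes on the array, of which 11 were fibrillar, 8 belonged to the basement membrane and 25 were other collagens. Where a gene had several probe sets, the one with the highest mean over all arrays stood for it. The knockout group held 3 mice in which TAK1 had been deleted in skeletal muscle for 3 weeks, and the control group held 3 mice with the floxed gene and no deletion, with 1 Affymetrix array per mouse. No source used here gives the driver of the deletion or the age and sex of the mice. Cells of muscle other than fibres are meant to keep TAK1 in this design, though which cells lost it was not measured here. Collagens in muscle are made mostly by fibroblast-like cells between the fibres. The question the design puts to these genes is whether loss of TAK1 from the fibres goes along with a different collagen make-up of the whole muscle.

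Collagens are proteins of 3 chains wound into a triple helix, each chain coded by its own gene. Fibrillar chains (types I, II, III, V, XI, XXIV and XXVII) form the fibrils that carry tension in tendon and in the sheaths around muscle fibres, with types I and III making up most of them and type V starting and limiting fibril growth. Type IV chains form the sheet-like network of the basement membrane around each fibre and capillary, with types XV and XVIII in the zone beside it. The others coat fibrils, form beaded filaments (type VI), anchor membranes or sit in cell membranes. TAK1, coded by Map3k7, is a kinase that relays signals of the TGF-beta family, which are known inducers of matrix genes.

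Promoter sequences are shown for 5 collagens that the results below turn on and that have one in the RefSeq promoter table of mouse assembly GRCm38.p6, which covers 35 of the 44 genes. Each runs 5′ to 3′ on the gene's strand, from 250 bases before the transcription start to 50 bases after it. In the first 3, for the type I chain Col1a2, the type III chain Col3a1 and the type VIII chain Col8a1, capitals mark matches on either strand to the TATA box letters TATAAA, the CCAAT box letters CCAAT, the GC box letters GGGCGG or the AP-1 letters TGANTCA. Col1a2 holds CCAAT and GGGCGG, Col3a1 holds TATAAA and Col8a1 holds GGGCGG at 4 places.
Col1a2, chr6:4505368-4505667, forward strand: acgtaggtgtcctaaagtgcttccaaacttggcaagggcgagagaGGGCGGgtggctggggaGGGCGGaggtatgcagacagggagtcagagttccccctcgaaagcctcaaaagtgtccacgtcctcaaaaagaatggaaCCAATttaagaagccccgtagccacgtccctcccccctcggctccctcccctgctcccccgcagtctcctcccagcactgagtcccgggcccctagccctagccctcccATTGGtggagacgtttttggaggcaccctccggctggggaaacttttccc
Col3a1, chr1:45311288-45311587, forward strand: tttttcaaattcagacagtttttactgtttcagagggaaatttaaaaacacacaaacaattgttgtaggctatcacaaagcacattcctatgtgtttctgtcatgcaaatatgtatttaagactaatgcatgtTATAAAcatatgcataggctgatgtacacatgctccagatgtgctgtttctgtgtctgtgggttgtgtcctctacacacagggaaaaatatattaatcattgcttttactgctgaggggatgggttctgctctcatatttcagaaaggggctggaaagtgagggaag
Col8a1, chr16:57754688-57754987, reverse strand: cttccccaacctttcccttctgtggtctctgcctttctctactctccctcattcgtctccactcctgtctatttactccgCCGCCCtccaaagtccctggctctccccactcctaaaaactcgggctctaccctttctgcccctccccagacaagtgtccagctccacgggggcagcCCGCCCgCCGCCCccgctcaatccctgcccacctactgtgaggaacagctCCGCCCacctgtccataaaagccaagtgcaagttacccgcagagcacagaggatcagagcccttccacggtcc

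Col4a1 and Col4a2, the main chains of the basement membrane network, are neighbours that are read in opposite directions. In their windows the capitals mark the 78 bases that the 2 windows share, each the reverse complement of the other.
Col4a1, chr8:11312777-11313076, reverse strand: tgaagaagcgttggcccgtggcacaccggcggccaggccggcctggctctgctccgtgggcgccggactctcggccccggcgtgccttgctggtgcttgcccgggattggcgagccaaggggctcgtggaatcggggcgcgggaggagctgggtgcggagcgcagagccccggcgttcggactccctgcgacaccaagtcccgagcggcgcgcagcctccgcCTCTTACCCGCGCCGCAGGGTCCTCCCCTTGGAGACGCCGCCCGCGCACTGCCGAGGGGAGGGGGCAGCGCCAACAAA
Col4a2, chr8:11312555-11312854, forward strand: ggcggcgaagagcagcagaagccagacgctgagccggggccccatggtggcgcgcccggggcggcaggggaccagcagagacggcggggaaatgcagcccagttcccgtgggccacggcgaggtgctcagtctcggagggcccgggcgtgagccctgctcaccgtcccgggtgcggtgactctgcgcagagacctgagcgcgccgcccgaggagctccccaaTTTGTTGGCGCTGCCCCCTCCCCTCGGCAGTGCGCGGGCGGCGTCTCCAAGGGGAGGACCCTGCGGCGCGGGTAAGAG

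Matches to GGGCGG occurred in 22 of the 35 collagen genes with a window and in 60.5% of their 38 windows, against 35.7% of all 32851 windows of the table. CCAAT was found in 34.2% of collagen windows and 37.4% of all windows, TATAAA in 13.2% and 13.6%, and TGANTCA in 2.63% and 7.81%. Matches of different motifs were allowed to overlap. The matches are descriptions of letters and say nothing of bound factors.

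Levels are the deposited log2 values, so that 1 unit is a 2-fold difference. The brightness of different probe sets does not rank transcripts, so no gene's level is set against another's, and in the sums over marker lists below the brightest probe sets weigh most. Arrays had medians between 5.78 and 5.84. A background guide of 5.85 was set so that 95% of 1394 odour and pheromone receptor genes, which muscle should not use, had lower means. The higher group mean lay above this guide for 36 collagens. It did not for Col4a6, Col6a4, Col6a5, Col8a2, Col9a1, Col10a1, Col19a1 and Col28a1, whose differences are limited by the low signal. Map3k7 had levels of 8.20, 8.28 and 8.17 in knockout muscle, against 8.47, 8.32 and 8.42 in control muscle. The groups did not overlap, by a small margin (log2 fold change −0.19, SE 0.09, limma adjusted p = 0.686, two-sided exact permutation p = 0.1, the lowest p possible with 3 arrays a group). The fibre markers Acta1 and Ckm, with knockout means of 14.07 and 13.76 and control means of 14.12 and 13.76, marked all 6 samples as muscle.

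Knockout array 3 stood apart in collagens before any comparison of groups. It held the lowest of the 6 values in 26 of 44 collagens (59.1%), against 15.7% of all genes, and in 9 of 11 fibrillar chains. Medians over fibrillar chains of the level minus the gene's own mean over 6 arrays were 0.09, −0.02 and −0.40 in the 3 knockout arrays and −0.02, 0.13 and 0.10 in the 3 control arrays. The medians of the groups overlapped, with the third knockout array far below the rest. For basement membrane collagens these medians were 0.03, 0.03 and −0.21 in knockout and −0.04, 0.12 and 0.08 in control arrays, and for other collagens 0.09, −0.004 and −0.10 in knockout and −0.01, 0.11 and −0.01 in control arrays. Over all genes these medians lay between −0.014 and 0.012. Values without the third knockout array are given beside many of the results below.

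**Figure D1:**
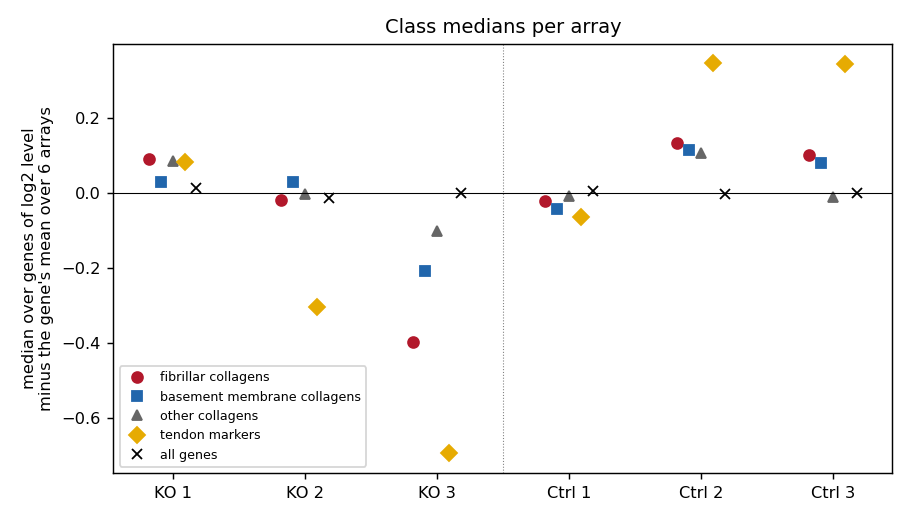
For each array on the horizontal axis, points give the median over genes of the log2 level minus the gene's mean over 6 arrays, for 3 collagen classes, 12 tendon markers and all genes, with knockout (KO) arrays left of control (Ctrl) arrays. Knockout array 3 lies lowest in all 3 classes, at −0.40 for fibrillar chains, and in tendon markers, at −0.69.

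Markers of tendon, which is built of type I collagen, shared this pattern in part, with the lowest value in knockout array 3 in 9 of 12 genes. Of 12 measured tendon markers, 11 had lower means in knockout muscle and 0 passed the adjusted test, with a median log2 fold change of −0.49, or −0.37 without knockout array 3. Unlike in the collagens, the count of lower means stayed at 11 without that array. At an unadjusted p of 0.05 in limma's test, 6 of the 12 passed (50%, against 8.04% of all genes), 5 lower and 1 higher. Their summed linear level was 3389, 3087 and 1700 in knockout arrays, against 2907, 4190 and 3889 in control arrays. The tendon membrane protein Tnmd, a defining marker, had 6.80, 6.41 and 5.52 in knockout and 6.36, 7.77 and 7.68 in control arrays. The tendon transcription factor Scx had 7.53, 7.13 and 7.52 in knockout and 7.60, 7.39 and 7.71 in control arrays. Among the 12, Mkx lay below the background guide. Markers of fibro-adipogenic progenitors, the main collagen-making cells between fibres, summed to 8133 to 11494 in knockout and 10470 to 10887 in control arrays over 13 genes, again with the lowest sum in knockout array 3, and Hic1 was below the guide. Their receptor Pdgfra had 9.53, 8.97 and 8.78 in knockout and 9.36, 9.25 and 9.30 in control arrays, and the surface marker Cd34 had 9.50, 9.47 and 8.84 in knockout and 9.17, 9.52 and 9.46 in control arrays. In whole muscle, fewer cells of a type and less RNA per cell cannot be told apart. The part of tendon and connective tissue cells in the collagen values was not tested.

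No collagen passed an adjusted p of 0.05 in limma's test over all genes, which called 0.0947% of genes. The lowest adjusted p was 0.309, for Col22a1. At an unadjusted p of 0.05, 3 of 44 collagens passed (6.82%), against 8.04% of all genes, namely Col22a1 and Col23a1, lower in knockout muscle, and Col8a1, higher. The knockout and control values did not overlap in 7 collagens (15.9%), a share near the 13.4% of all genes. Of these, 6 were lower (13.6%, against 6.65% of all genes) and 1 was higher (2.27%, against 6.74%). The 6 were Col5a3, Col10a1, Col11a2, Col22a1, Col23a1 and Col24a1, and the 1 was Col26a1, whose values are added because it was alone, with 6.65, 6.56 and 6.63 in knockout and 6.41, 6.56 and 6.55 in control arrays, apart by less than the rounding shown. After quantile normalization or median centring, Col11a2 and Col24a1 overlapped and the other 5 did not.

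More collagens had lower means in knockout muscle than higher ones. The mean was lower in 31 of 44 (70.5%), against 50.1% of all genes, and the median log2 fold change was −0.11, against −0.0003 over all genes. Without knockout array 3 the mean was lower in 24 of 44 (54.5%) and the median was −0.03. Leaving out control array 1 instead gave 36 of 44 (81.8%) and a median of −0.09. By class, 9 of 11 fibrillar chains were lower with a median of −0.14, 8 of 8 basement membrane chains with a median of −0.12, and 14 of 25 others with a median of −0.05. Without knockout array 3 these medians were −0.09, −0.05 and 0.03, and 9, 6 and 9 chains were lower. Without control array 1 they were −0.17, −0.20 and −0.05, and 10, 8 and 18 chains were lower. Fold changes spanned −0.52 to 0.20 in fibrillar, −0.28 to −0.02 in basement membrane and −0.46 to 1.08 in other collagens, as the plot of fold changes shows.

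**Figure D2:**
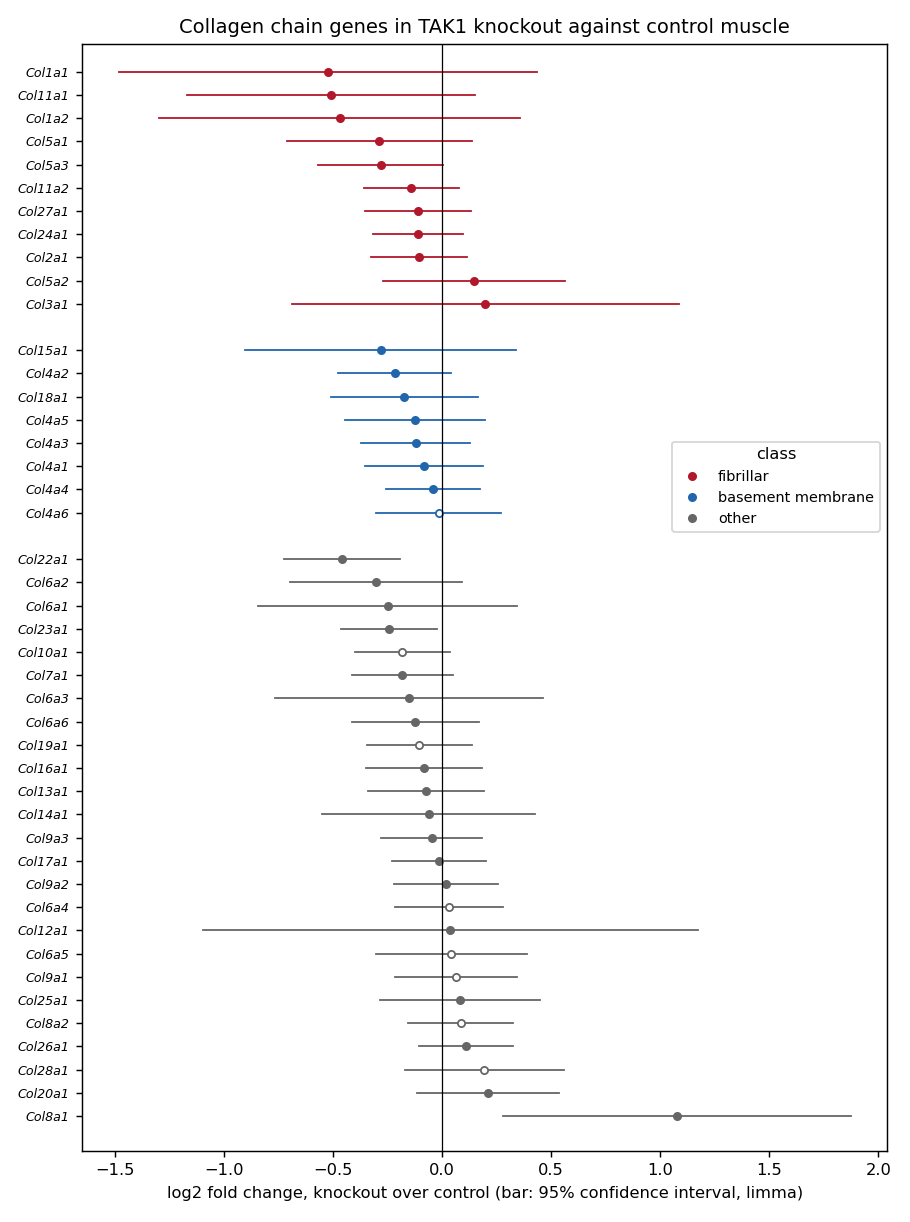
Points give the log2 fold change of each of 44 collagen genes, knockout over control, and bars its 95% confidence interval from limma, with open points for genes not above the background guide. The interval excludes 0 for Col8a1 (0.28 to 1.87), Col22a1 (−0.72 to −0.19) and Col23a1 (−0.46 to −0.02), and none of the 44 passed the adjusted test.

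Among the fibrillar chains, the type I pair varied from mouse to mouse in step. Col1a1, the alpha 1 chain of type I collagen, had 10.69, 10.20 and 8.98 in knockout and 9.85, 10.91 and 10.69 in control arrays. Its partner Col1a2 had 10.12, 9.74 and 8.65 in knockout and 9.44, 10.24 and 10.24 in control arrays. In both, knockout array 3 was lowest and control array 1 next, and the groups overlapped. Means of Col1a1 were 9.96 ± 0.88 in knockout and 10.48 ± 0.56 in control muscle (SD, n = 3 each), a log2 fold change of −0.52 (95% confidence interval −1.48 to 0.44, adjusted p = 0.830). For Col1a2 they were 9.50 ± 0.76 in knockout and 9.97 ± 0.46 in control muscle, a log2 fold change of −0.47 (−1.30 to 0.36, adjusted p = 0.819). Without knockout array 3 the 2 fold changes were −0.04 and −0.04, against −0.84 and −0.74 without control array 1.

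Col3a1, the only chain of type III collagen, ran in another order. It had 10.39, 10.14 and 8.84 in knockout and 9.04, 9.90 and 9.83 in control arrays, so the first and second knockout arrays were the highest and the third the lowest of all. The mean was 9.79 ± 0.83 in knockout and 9.59 ± 0.48 in control muscle, and the log2 fold change of 0.20 (−0.69 to 1.09, adjusted p = 0.949) was 0.67 without knockout array 3, −0.08 without control array 1 and −0.10 without knockout array 1. Its direction thus rested on single arrays.

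Type V chains co-assemble with types I and III. Col5a1 had 8.03, 7.94 and 7.38 in knockout and 7.92, 8.32 and 7.97 in control arrays (log2 fold change −0.29, adjusted p = 0.779, or −0.09 without knockout array 3), and a second, dimmer probe set of the gene differed in sign (0.08). Col5a2, which was added after its values were seen, had 7.98, 7.70 and 7.24 in knockout and 7.34, 7.66 and 7.48 in control arrays (0.15, adjusted p = 0.901, or 0.35 without knockout array 3 and 0.07 without control array 1). The groups overlapped in both chains. Col5a3, also added, did not overlap, with 7.64, 7.55 and 7.21 in knockout and 7.73, 7.74 and 7.78 in control arrays (−0.28, adjusted p = 0.623, or −0.15 without knockout array 3).

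The remaining fibrillar chains were lower in mean without passing. Col11a1, which joins type II fibrils in cartilage and is also made by tendon, had 6.42, 6.23 and 5.57 in knockout and 5.99, 7.06 and 6.69 in control arrays. The groups overlapped, and the log2 fold change of −0.51 (−1.17 to 0.15, adjusted p = 0.736) was −0.26 without knockout array 3 and −0.80 without control array 1. The others, Col2a1, Col11a2, Col24a1 and Col27a1, had fold changes between −0.14 and −0.11 and adjusted p between 0.786 and 0.859. Their fold changes lay between −0.18 and −0.04 without knockout array 3. Second probe sets of Col1a2 and Col6a1 had the same sign as the first, at −0.25 and −0.09.

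**Figure D3:**
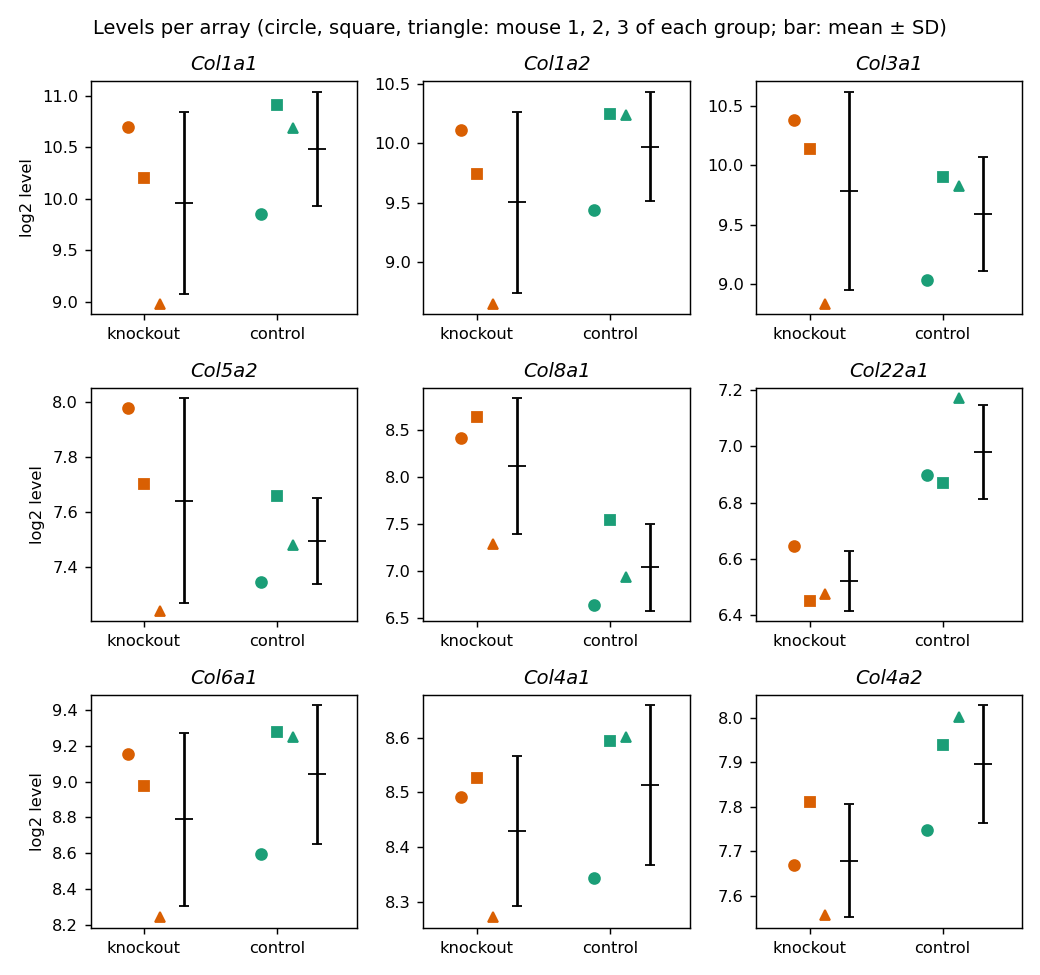
Log2 levels per array of 9 collagen genes in knockout (left, orange) and control (right, green) muscle, with circle, square and triangle for mice 1, 2 and 3 of each group and the bar for mean ± SD (n = 3). The knockout triangle (mouse 3) is lowest in Col1a1, Col1a2, Col3a1, Col5a2, Col6a1, Col4a1 and Col4a2, and the groups do not overlap in Col22a1.

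Single chains varied widely between mice, while some pairs of chains kept a steadier balance within a group. For each array the level of a chain was taken relative to that of another chain, after subtracting each gene's mean over 6 arrays. This measure, and the 11 pairs of chains it was applied to, were chosen after the values were seen, and the differences are given without a test. With the probe set that stood for each gene, the groups lay apart in 6 pairs and overlapped in 5. A share over all genes was taken only relative to Col1a1, Col5a1 and Col4a1. Because the pairs were picked with their values known, the count of pairs is not a result about collagens. Col3a1 relative to Col1a1 was 0.23, 0.47 and 0.39 in knockout and −0.28, −0.48 and −0.32 in control arrays. The groups lay apart by far more than their spread, with 0.36 ± 0.12 in knockout and −0.36 ± 0.10 in control arrays (SD, n = 3 each), a difference of 0.72 or 1.65-fold. Knockout array 3, the lowest in both genes, lay between the other knockout arrays on this measure. Of all other genes, 0.568% were higher relative to Col1a1 in every knockout than in every control array. Since the pair was picked with its values known, this share is a description and cannot rate the pair.

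Relative to Col1a2, Col3a1 was 0.32, 0.45 and 0.24 in knockout and −0.35, −0.29 and −0.36 in control arrays, a difference of 0.67. This separation depended on the probe set. The second, dimmer probe set of Col1a2 had 6.53, 6.06 and 5.27 in knockout and 5.83, 6.52 and 6.26 in control arrays. Relative to it, the groups of Col3a1 overlapped narrowly. The type I chains themselves kept step, since Col1a2 relative to Col1a1 was −0.09, 0.02 and 0.15 in knockout and 0.07, −0.18 and 0.03 in control arrays, a difference of 0.05 with overlapping groups. Col5a2, whose gene lies next to Col3a1 in the RefSeq table, was 0.31, 0.12 and 0.22 relative to Col5a1 in knockout and −0.22, −0.30 and −0.13 in control arrays, a difference of 0.43. That separation is common, since 13% of all other genes were higher relative to Col5a1 in every knockout than in every control array. It also depended on the probe set, since the groups of Col5a2 overlapped relative to the second, dimmer probe set of Col5a1. Overlapping pairs also included Col5a3 relative to Col5a1 (difference 0.01), Col6a2 relative to Col6a1 (−0.05), Col6a3 relative to Col6a1 (0.10) and Col12a1 relative to Col1a1 (0.56). A ratio within an array shows unequal change of 2 chains and not which of them changed.

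**Figure D4:**
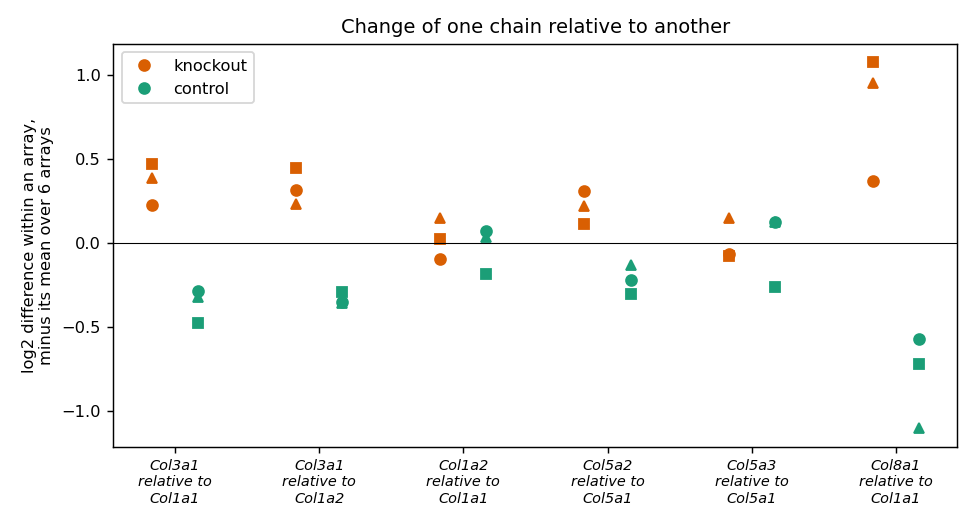
Each point is the log2 level of one chain minus that of another on 1 array, less the mean of that difference over 6 arrays, for knockout (left) and control (right) arrays, with circle, square and triangle for mice 1, 2 and 3. Knockout and control arrays lie apart for Col3a1 relative to Col1a1 (0.23 to 0.47 against −0.48 to −0.28), and overlap for Col1a2 relative to Col1a1.

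Basement membrane collagens moved less from mouse to mouse than fibrillar chains, with a median SD within groups of 0.15 against 0.29. This SD was 0.14 for other collagens and 0.15 for all genes. Col15a1 varied more, with an SD of 0.52 in knockout and 0.40 in control muscle. Col4a1 had 8.49, 8.53 and 8.27 in knockout and 8.34, 8.59 and 8.60 in control arrays (log2 fold change −0.08, 95% confidence interval −0.35 to 0.19, adjusted p = 0.922), or −0.005 without knockout array 3 and −0.17 without control array 1. Its neighbour Col4a2 had 7.67, 7.81 and 7.56 in knockout and 7.75, 7.94 and 8.0 in control arrays (−0.22, −0.48 to 0.04, adjusted p = 0.703). Both were lowest in knockout array 3 and highest in control array 3, and the groups overlapped in each. Relative to Col4a1, Col4a2 was −0.14, −0.03 and −0.03 in knockout and 0.09, 0.03 and 0.08 in control arrays, a difference of −0.13. Of all other genes, 1.19% were lower relative to Col4a1 in every knockout than in every control array. This pair too was picked with its values known, so the share cannot rate it.

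The minor type IV chains are known mainly from kidney, eye and smooth muscle. Col4a5 had 6.26, 5.92 and 6.30 in knockout and 6.07, 6.41 and 6.37 in control arrays (log2 fold change −0.12, adjusted p = 0.885, or −0.19 without knockout array 3), while Col4a3, Col4a4 and Col4a6 had fold changes of −0.12, −0.04 and −0.02, or −0.06, −0.08 and 0.09 without that array. Col15a1, a chain at the outer face of basement membranes of muscle and capillaries, had 7.30, 7.07 and 6.31 in knockout and 6.81, 7.11 and 7.61 in control arrays. It was −0.28 in log2 fold change (adjusted p = 0.859) and 0.01 without knockout array 3. Col18a1, whose end fragment is endostatin, had 6.0, 5.98 and 5.57 in knockout and 5.89, 6.22 and 5.96 in control arrays (−0.17, adjusted p = 0.840, or −0.03 without knockout array 3). The groups overlapped in Col4a5, Col15a1 and Col18a1. Endothelial markers, which mark a main source of type IV collagen, had a median log2 fold change of −0.003 over 10 genes, with 5 lower. Control array 1 was lowest in 6 of them, and without it the median was −0.08 with 9 lower.

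Among the other collagens, Col8a1 had the largest difference of all 44. It codes for the alpha 1 chain of type VIII collagen, a short chain that forms networks under endothelium and in vessel walls. Its levels were 8.42, 8.64 and 7.29 in knockout and 6.64, 7.55 and 6.94 in control arrays, so that knockout arrays 1 and 2 were highest and knockout array 3 lay within the control range. The mean was 8.12 ± 0.72 in knockout and 7.04 ± 0.46 in control muscle, 2.11-fold higher (log2 fold change 1.08, SE 0.35, adjusted p = 0.454). Without knockout array 3 the log2 fold change was 1.49 (adjusted p = 0.140). It was smaller without knockout array 1 (0.92), knockout array 2 (0.81), control array 1 (0.87) or control array 3 (1.02). Without control array 2 it was 1.33. Relative to Col1a1, Col8a1 was 0.37, 1.08 and 0.95 in knockout and −0.57, −0.72 and −1.10 in control arrays, without overlap, and relative to Col3a1 it differed by 0.88, also without overlap. Of all other genes, 0.568% were higher relative to Col1a1 in this way, and no such share was taken for Col3a1. Both pairs were picked after the values were seen. Col8a2, which codes for the other type VIII chain, was below the background guide (0.08). Of 10 smooth muscle and pericyte markers, 1 (Kcnj8, −0.23, named after its values were seen) did not overlap between groups. That is 10%, against 13.4% of all genes. Among the others, Acta2 was at 9.71, 9.54 and 9.53 in knockout and 9.24, 9.89 and 9.62 in control arrays, and Myh11 at 8.46, 8.58 and 8.55 in knockout and 8.13, 8.71 and 8.44 in control arrays.

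Col22a1 is known as a collagen of the junction between muscle fibre and tendon and is made by muscle fibres there. It had 6.64, 6.45 and 6.47 in knockout and 6.90, 6.87 and 7.17 in control arrays, without overlap and with means of 6.52 ± 0.11 in knockout and 6.98 ± 0.17 in control muscle (SD, n = 3 each). The log2 fold change was −0.46 (95% confidence interval −0.72 to −0.19, adjusted p = 0.309), which is 1.37-fold lower, and −0.43 without knockout array 3. Col23a1, a transmembrane collagen, was added after its values were seen and had 6.39, 6.46 and 6.58 in knockout and 6.74, 6.76 and 6.66 in control arrays (−0.24, adjusted p = 0.572). In neither gene was knockout array 3 the lowest array.

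Type VI chains form beaded filaments beside the basement membrane, and their loss is a known cause of muscle disease. Col6a1 had 9.15, 8.98 and 8.24 in knockout and 8.59, 9.28 and 9.25 in control arrays (log2 fold change −0.25, adjusted p = 0.872). Col6a2 had 8.30, 8.18 and 7.68 in knockout and 8.18, 8.35 and 8.55 in control arrays (−0.30, adjusted p = 0.736). Col6a3 had 8.53, 8.15 and 7.34 in knockout and 7.91, 8.23 and 8.33 in control arrays (−0.15, adjusted p = 0.943). All 3 were lowest in knockout array 3, their groups overlapped, and without that array the fold changes were 0.02, −0.12 and 0.18. The type VI chain Col6a6 had −0.12, or −0.05 without that array, and Col6a4 and Col6a5 lay below the background guide.

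Of the 9 fibril-coating (FACIT) collagens, 5 had lower and 4 had higher means, with a median log2 fold change of −0.05. Col12a1, which coats type I fibrils, was added for its spread, with 8.65, 8.16 and 7.0 in knockout and 7.06, 8.87 and 7.77 in control arrays (log2 fold change 0.04, 95% confidence interval −1.10 to 1.17, or 0.51 without knockout array 3). Its values spanned 1.87 log2 units over the 6 mice, and the groups overlapped. The related chain Col14a1 had −0.06, or 0.18 without knockout array 3, and Col20a1 had 0.21, or 0.37. Col9a2, a cartilage FACIT chain, had 7.93, 7.96 and 7.98 in knockout and 7.78, 8.07 and 7.97 in control arrays (0.02, adjusted p = 0.987). The anchoring fibril chain Col7a1 had −0.18, the synaptic transmembrane chain Col13a1 −0.08, Col16a1 −0.08, Col9a3 −0.05, Col17a1 −0.02 and Col25a1 0.08, with adjusted p between 0.728 and 0.987. With knockout array 3 left out, Col7a1 was −0.22, Col13a1 −0.11, Col16a1 0.004, Col9a3 −0.10, Col17a1 0.03 and Col25a1 0.15. Cartilage and bone markers, which could accompany cartilage collagens, were measured for 9 genes and lay below the background guide for 7, among them Acan.

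**Figure D5:**
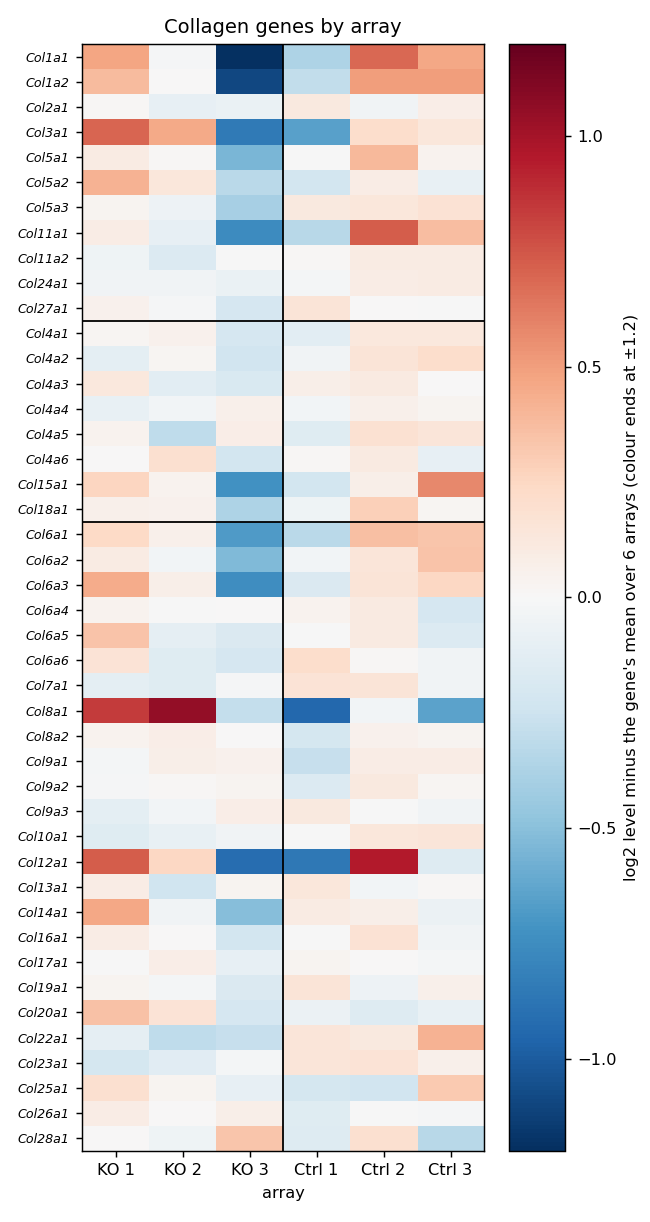
Colour gives the log2 level of each of 44 collagen genes minus its mean over 6 arrays, with lines between fibrillar, basement membrane and other chains (top to bottom) and between knockout (KO) and control (Ctrl) arrays. Knockout array 3 is lowest in 26 genes, Col8a1 is highest in knockout arrays 1 and 2, and Col22a1 is lower in all knockout arrays.

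Genes that make, process, bind and degrade collagen were read in the same test, and 0 members of 7 lists passed it. Of 20 genes of chain hydroxylation, glycosylation and folding, 16 were lower in knockout muscle, with a median log2 fold change of −0.07. Without knockout array 3, 13 were lower (median −0.06). The largest differences above background were in the matrix gene activator Creb3l1 (−0.32, adjusted p = 0.558), the galactosyltransferase Colgalt1 (−0.26, adjusted p = 0.627) and the prolyl hydroxylase subunit P4ha2 (−0.25, adjusted p = 0.608). P4ha2 had 6.88, 6.84 and 7.04 in knockout and 7.19, 7.27 and 7.05 in control arrays, without overlap but by a narrow margin. Of 13 genes of procollagen processing and cross-linking, 9 were lower (median −0.03), or 7 without knockout array 3 (median −0.01). Among those above background, the largest differences were in the cross-linking oxidase Loxl3 (−0.30), the protease Tll1 (0.24) and the enhancer of C-end cleavage Pcolce (−0.18), or −0.21, 0.24 and −0.01 without knockout array 3.

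Of 15 genes of collagen breakdown and its inhibitors, 8 were higher and 7 lower (median 0.01, or 0.11 without knockout array 3). The collagenase Mmp13 had a log2 fold change of 0.52, the inhibitor Timp2 −0.40 and the gelatinase Mmp2 −0.24, with adjusted p between 0.652 and 0.855. With knockout array 3 left out, Mmp13 was 0.46, Timp2 −0.18 and Mmp2 0.04. Mmp2 had 9.79, 9.48 and 8.78 in knockout and 9.47, 9.71 and 9.58 in control arrays, lowest again in knockout array 3. Of 11 collagen receptors, 7 were lower (median −0.03, or 0.06 without knockout array 3), and the platelet receptor Gp6 (0.33), the fibroblast integrin Itga11 (−0.24) and the receptor kinase Ddr2 (−0.19) differed most. Without knockout array 3, Gp6 was 0.42, Itga11 −0.07 and Ddr2 0.06, so the lower means of Itga11 and Ddr2 rested largely on that array.

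Of 17 collagen-binding matrix proteins, 12 were lower (median −0.13, or 0.07 without knockout array 3), and 5 of the 17 are also tendon markers of the list above. The small proteoglycan keratocan, Kera, had 6.87, 6.10 and 5.59 in knockout and 6.65, 7.86 and 8.32 in control arrays (log2 fold change −1.43, adjusted p = 0.425). Fibromodulin, Fmod, which sets fibril width in tendon, had 8.78, 8.42 and 7.41 in knockout and 8.92, 9.31 and 9.16 in control arrays, without overlap (−0.93, adjusted p = 0.456, or −0.53 without knockout array 3). Comp, a tendon and cartilage matrix protein, had −0.68 (adjusted p = 0.670, or −0.38 without knockout array 3).

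Of 15 other basement membrane proteins, 11 were lower (median −0.13, or 0.01 without knockout array 3). Smoc1 was higher in every knockout array, with 7.08, 6.91 and 7.19 in knockout and 6.68, 6.81 and 6.63 in control arrays (0.35, adjusted p = 0.443), while Lama2, the muscle laminin chain, had −0.28 and Smoc2 −0.26, or −0.16 and −0.08 without knockout array 3. Of 18 TGF-beta ligands, receptors and matrix targets, 12 were lower (median −0.10). The signal transducer Smad3 had 8.17, 7.89 and 8.23 in knockout and 8.74, 8.87 and 8.76 in control arrays, without overlap (−0.69, SE 0.12, adjusted p = 0.124), the matrix signal Ccn1 had −0.48 (adjusted p = 0.616) and the ligand Tgfb3 −0.25 (adjusted p = 0.607). Unlike the type I chains, Smad3 was highest among knockout arrays in the third.

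Markers of the other cell types were set beside the collagens. Median log2 fold changes were 0.01 for 8 Schwann cell, 0.01 for 10 macrophage, −0.08 for 7 adipocyte and −0.11 for 10 smooth muscle and pericyte markers, or 0.08, 0.10, −0.21 and −0.10 without knockout array 3. They were −0.13 for 8 satellite cell, −0.10 for 13 fibro-adipogenic, 0.15 for 9 cartilage and bone and −0.05 for 12 muscle fibre markers, or −0.06, 0.02, 0.05 and −0.04 without that array. The muscle fibre markers summed to 149718 to 155554 in knockout and 159626 to 162775 in control arrays, without overlap. Satellite cell markers summed to 1103 to 1272 in knockout and 1299 to 1419 in control arrays, also without overlap. Sums of the other marker lists overlapped, and no share over all genes was taken for sums. Single members did not overlap in 5 of 12 fibre (41.7%) and 2 of 8 satellite cell markers (25%), against 13.4% of all genes. Among the satellite cell markers, 5 of 8 were lower, and Pax7 had −0.05 and Myf5 0.02. In the macrophage list Adgre1 had −0.23 and Cd68 0.42, and in the adipocyte list Adipoq had −0.23 and Lep −0.02. Schwann cell markers Pmp22 and Sox10 had 0.02 and 0.13, endothelial Pecam1 and Cdh5 0.05 and −0.02, and Sox9 of cartilage 0.08. None of these passed the test over all genes.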

How the data were processed

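RNA of gastrocnemius muscle from 3 knockout and 3 control mice was labelled as biotinylated cRNA and read on Affymetrix arrays, per the labels' protocols. The authors deposited log2 probe set summaries of 41345 probe sets, and RMA, oligo and limma are named in the submitters' processing notes without versions. RMA, as commonly run, makes the distributions of arrays alike and compresses differences of dim transcripts. Scan dates and detection calls were not used here, so batches were not tested, and the number of arrays limits the precision.

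Gene symbols came from the platform table, in which 23521 probe sets had 1 symbol, 1814 several and 16010 none. All 44 collagen genes matched the RefSeq table by Entrez identifier. A probe set that names Col6a1 with other genes was left out. Groups were compared across 22180 genes with limma 3.58.1 in R 4.3.3 (lmFit, eBayes, two-sided, Benjamini-Hochberg over all genes, threshold 0.05), without a block. The fit was tested on simulated data with independent noise for each gene. That test cannot show how the fit behaves where an array is low in many collagens together, as knockout array 3 was. Replicates are separate mice by their labels, so p-values measure the spread between mice. Replicate numbers were not taken as pairs, since the labels do not say what they mark. Correlations of deviations across genes for mice of the same number were 0.08, 0.21 and −0.07, which cannot settle pairing with 3 mice a group. Values of all arrays are printed for the up to 4 brightest and 4 most different members of each class, and for genes said to be added. In the other lists, the 3 most different genes above background and the first 2 markers measured are named, and others only where said. Of 116 pathway and 103 marker entries, 109 and 99 were measured. The members, lists and rules were chosen with earlier results of these data known. Alternatives were scaling, probe set choice, filters, variance models, a replicate block and leaving out arrays. Plots used matplotlib 3.10.9 in Python 3.11.15.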

Additional observations from a re-analysis of the deposited data

How the results depend on the processing

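The count of called collagens was 0 under every setting run, with 1 to 6 passing an unadjusted p of 0.05 (limma, and 3 by an ordinary per-gene test). Quantile normalization and median centring each left 4 collagens lower and 1 higher without overlap, against 6 and 1. Medians over other collagens ran from −0.14 (without knockout 1) to 0.031 (without knockout 3), fibrillar from −0.17 to −0.09, basement membrane from −0.20 to −0.05 and all collagens from −0.15 to −0.03 when arrays were left out. Leaving out knockout 3 and control 1 together, chosen after seeing the data, gave −0.16 for fibrillar and −0.06 for all. Of 16 collagens chosen by the naming rule, 11 kept their direction throughout. Without knockout 1, Col3a1 was −0.10, and without control 1 it was −0.08. Over single arrays left out, Col3a1 ran to 0.67, Col15a1 from −0.48 to 0.0088, Col6a1 from −0.47 to 0.025 and Col6a3 from −0.41 to 0.18, the upper values all without knockout 3. Col9a2 ran from −0.063 (without control 1) to 0.081, and without both arrays it was −0.073, with Col6a3 at 0.058. With the replicate number as a block, the log2 fold changes stayed and 0 collagens were called, with adjusted p of 0.375 for Col22a1 and 0.303 for Col8a1, and no call changed. The causes were not tested. With 3 arrays a group, the difference of Col1a1 (−0.52) lay within the spread of that gene between mice, and 8 collagens near background can hide differences.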
